A study of Mus musculus with 16 samples.

Results

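The 10 genes described here encode CC chemokines, namely Ccl2, Ccl3, Ccl4, Ccl5, Ccl6, Ccl7, Ccl8, Ccl9, Ccl12 and Ccl22. They were picked by symbol from 18480 entries per library, but the list was drawn up with earlier results of these data known. Counts of members set beside shares of all genes are therefore a description. Each symbol stood on 1 entry, and all 10 passed the filter on low values, which kept 11868 genes. The study sequenced RNA of subcutaneous MC38 grafts in 16 libraries, where MC38 is a colon carcinoma line of the mouse. There were 4 libraries in each of 4 groups, which were exercise with anti-PDL1 (called the combination), anti-PDL1 alone, exercise alone, and control. Anti-PDL1 is an antibody against the ligand of the inhibitory receptor PD-1, and the series title speaks of PD-1 while the labels name anti-PDL1. The source of all groups is labelled as MC38 cells. Marker genes of macrophages (C1qa) and red blood cells (Hba-a1) were also measured in every library, so RNA of host cells was measured with that of the tumour. The mouse strain, sex and age, the antibody dose, the exercise programme, any isotype control and the time of sampling are not given in the sources that were used here. The labels do not say whether each library came from its own animal, so p-values reflect the spread among these samples, and that spread may be technical.

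Chemokines are small secreted proteins that bind receptors on leukocytes and direct their migration. In CC chemokines the first conserved pair of cysteines stands side by side. Ccl2, Ccl7 and Ccl12 attract monocytes through the receptor Ccr2, and Ccl8 signals in mice through Ccr8. Ccl3, Ccl4 and Ccl5 attract T cells and macrophages, Ccl6 and Ccl9 are mouse ligands of Ccr1, and Ccl22 binds Ccr4 on T cells. In tumours these proteins are known for recruiting monocytes, macrophages and T cells.

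The 42 coding bases around the adjacent cysteine codons are printed here because this pair defines the family and because the likeness of the sequences bears on whether reads could be shared. Each was read 5′ to 3′ on the coding strand from the first coding transcript of the gene in GENCODE M21 (GRCm38), and the capitals mark both cysteine codons.
Ccl2: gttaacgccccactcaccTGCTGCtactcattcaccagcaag
Ccl7: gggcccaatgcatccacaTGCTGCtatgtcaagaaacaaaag
Ccl8: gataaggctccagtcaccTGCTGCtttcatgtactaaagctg
Ccl12: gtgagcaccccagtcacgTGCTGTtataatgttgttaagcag
Ccl3: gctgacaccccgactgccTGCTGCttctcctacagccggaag
Ccl4: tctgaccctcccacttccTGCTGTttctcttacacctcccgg
Ccl5: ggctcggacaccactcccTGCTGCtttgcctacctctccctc
Ccl6: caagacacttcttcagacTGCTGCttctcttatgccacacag
Ccl9: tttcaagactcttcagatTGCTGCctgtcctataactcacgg
Ccl22: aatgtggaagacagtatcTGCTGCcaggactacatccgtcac

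The stretch of Ccl2 lies at chr11:82036488-82036529 on the plus strand, that of Ccl7 at chr11:82046520-82046561 (plus) and that of Ccl12 at chr11:82102616-82102657 (plus). For Ccl8 it is split by an intron between chr11:82115312 and 82116079 (plus). The stretches of Ccl3 at chr11:83648634-83648675, Ccl5 at chr11:83529224-83529265, Ccl6 at chr11:83589368-83589409 and Ccl9 at chr11:83575908-83575949 are on the minus strand. Those of Ccl4 at chr11:83663464-83663505 and Ccl22 at chr8:94746916-94746957 are on the plus strand. The first cysteine of the pair was codon 50 in Ccl6 and codon 57 in Ccl9, and it lay between codons 32 and 36 in the other genes. Ccl6 and Ccl9 shared the longest identical coding run of any pair, 23 bases. It was 17 bases for Ccl2 with Ccl12 and for Ccl7 with Ccl8.

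In the RefSeq annotation of GRCm38.p6, 9 of the genes lie on chromosome 11 in 2 runs. Ccl2, Ccl7, Ccl12 and Ccl8 lie within 81.2 kb (chr11:82035577-82116799), and Ccl5, Ccl9, Ccl6, Ccl3 and Ccl4 within 138.9 kb (chr11:83525778-83664683). Ccl22 lies on chromosome 8 (94745684 to 94751388). The RefSeq spans of Ccl3 and Ccl4 share 755 bases on opposite strands, and their spans in GENCODE M21 share 0. These spans include introns, and shared exon bases were not counted. Whether the counting used strand is not stated, so some reads may be shared. The values of Ccl3 and Ccl4 may be uncertain to that extent.

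Levels are FPKM as deposited by the authors (fragments mapped per kilobase of a transcript, relative to all mapped fragments). Since they hold no read counts, depth is unknown and counting error cannot be given. The sum of a library lay between 478672 and 529732 FPKM. Controls 1 and 2 lay apart from the other libraries on the first principal component (30.1% of the variance), at -30.8 and -41.4 against -17.0 to 26.3 elsewhere, so printed differences of members that they move by more than 1.5 times or turn in sign are also given without both. Control 2 also had the highest summed level of 5 skeletal muscle genes, 292 FPKM against at most 12 FPKM elsewhere. The tissue label was checked against markers. Summed levels of 12 macrophage genes averaged 628 ± 356 FPKM in combination, 427 ± 171 in anti-PDL1, 805 ± 173 in exercise and 1011 ± 615 FPKM in control tumours (SD, n = 4 each), with 1197 and 1773 FPKM in controls 1 and 2 and 354 and 718 FPKM in controls 3 and 4. Of the epithelial markers, Krt8, Krt18 and Epcam had medians of 0.045, 0 and 0.1 FPKM over the 16 libraries. Cdh1 and Krt19, the epithelial markers that were tested, lay between 1.24 and 3.05 FPKM and between 0.04 and 4.87 FPKM, with medians of 1.97 and 0.195 FPKM.

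Together, the 10 chemokines summed to 307 ± 77.6 FPKM in combination, 359 ± 53.2 in anti-PDL1, 184 ± 68.0 in exercise and 364.7 ± 272 FPKM in control tumours (SD, n = 4 each). The control sum ranged from 179 to 767 FPKM, and control 2 held the highest sum of all libraries. Ccl2 and Ccl6 were the most abundant genes in combination, anti-PDL1 and exercise tumours. In combination tumours Ccl2 led with 97.3 ± 42.7 FPKM, followed by Ccl6 with 84.0 ± 23.6 and Ccl7 with 47.5 ± 16.01 FPKM. In anti-PDL1 tumours Ccl6 led with 120.4 ± 20.9 FPKM, followed by Ccl2 with 105.7 ± 21.5 and Ccl7 with 52.1 ± 9.98 FPKM. In exercise tumours Ccl2 (78.7 ± 44.3 FPKM) stood before Ccl6 (28.0 ± 7.93) and Ccl7 (20.97 ± 7.97). In controls the first 3 places were held by Ccl6 (115.8 ± 103 FPKM), Ccl8 (84.9 ± 123) and Ccl2 (52.6 ± 19.1). The highest genes were not separated from each other in any group, since the libraries of Ccl2 and Ccl6 overlapped throughout. Ccl7 lay below Ccl2 and Ccl6 and above the genes under it with no overlap in anti-PDL1 tumours. In exercise tumours every neighbour in the order overlapped the next. Ccl5, Ccl3, Ccl4 and Ccl22 held the last 4 places in combination, exercise and control tumours, while in anti-PDL1 tumours Ccl3 stood in place 5.

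**Figure D1:**
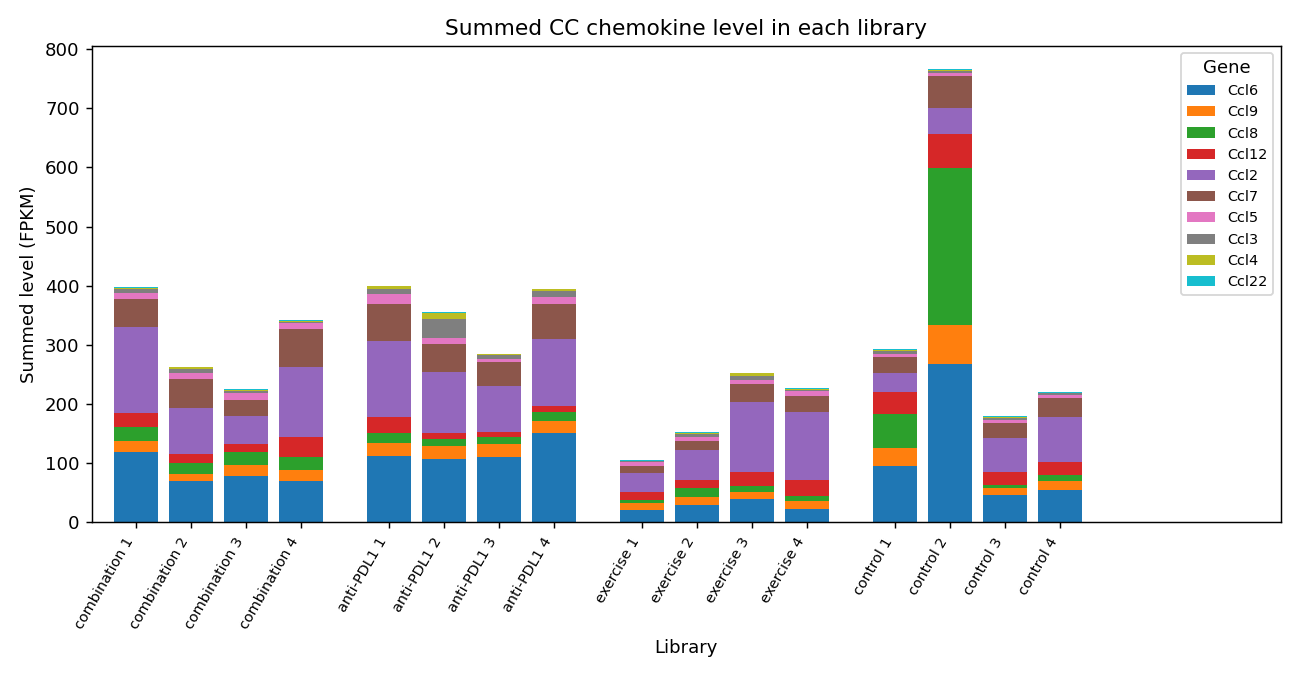
Summed level of the 10 CC chemokines (y axis, FPKM) in each of the 16 libraries (x axis), with stacked bars split by gene. Control 2 reached 767 FPKM, of which 34.9% was Ccl6 and 34.7% was Ccl8, and the exercise libraries lay between 105 and 253 FPKM.

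Among the Ccr2 ligands, Ccl2 measured 145, 78.2, 48.1 and 118 FPKM in combination libraries 1 to 4 and 128, 103, 77.4 and 114 FPKM in anti-PDL1 libraries. It measured 31.9, 49.9, 119 and 114 FPKM in exercise libraries and 32.1, 44.2, 57.3 and 76.8 FPKM in controls. The lowest anti-PDL1 library lay just above the highest control, while the combination and exercise libraries overlapped each other and the controls. The log2 difference of anti-PDL1 minus control was 1.04 ± 0.42 (standard error, adjusted p = 0.163 in limma), and that of combination minus exercise was 0.39 ± 0.42 (adjusted p = 0.722). Leaving out controls 1 and 2 gave 0.64 for anti-PDL1 minus control. Exercise minus control was 0.44 ± 0.42 and combination minus control 0.83 ± 0.42 for Ccl2, and neither passed the threshold (adjusted p = 0.582 and 0.636 in limma). These 2 differences were 0.04 and 0.43 with both controls left out, and leaving out 1 library at a time moved combination minus exercise between 0.03 and 0.68.

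Ccl7, which attracts monocytes, measured 48.8, 50.01, 26.2 and 65.0 FPKM in combination libraries 1 to 4 and 62.1, 47.1, 40.6 and 58.6 FPKM in anti-PDL1 libraries. It measured 12.7, 15.8, 28.9 and 26.6 FPKM in exercise libraries and 26.5, 54.0, 26.01 and 31.7 FPKM in controls. Combination library 3 was the only 1 of that group within the range of exercise, and control 2 the only control within the range of anti-PDL1. Combination minus exercise was 1.15 ± 0.31 on the log2 scale (adjusted p = 0.199 in limma) and anti-PDL1 minus control was 0.62 ± 0.31 (adjusted p = 0.233). Exercise minus control was -0.71 ± 0.31 (adjusted p = 0.250) and combination minus control 0.44 ± 0.31 (adjusted p = 0.714).

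Ccl12, the mouse ligand of Ccr2, measured 23.3, 13.8, 13.3 and 33.8 FPKM in combination libraries and 26.9, 10.5, 7.91 and 10 FPKM in anti-PDL1 libraries. It measured 13.7, 14.3, 24.02 and 28.3 FPKM in exercise libraries and 37.1, 57.2, 21.8 and 21.02 FPKM in controls. Of the anti-PDL1 libraries 3 lay below every other library in the series, and library 1 lay among the controls. The log2 difference of anti-PDL1 minus control was -1.29 ± 0.41 (adjusted p = 0.107 in limma) and -0.75 without controls 1 and 2, and that of combination minus exercise was 0.03 ± 0.41 (adjusted p = 0.986). Combination minus anti-PDL1 was 0.63 ± 0.41 (adjusted p = 0.968), and exercise minus control was -0.69 ± 0.41 (adjusted p = 0.380) and -0.15 without controls 1 and 2. Combination minus control was -0.66 over all libraries and -0.12 without controls 1 and 2. Leaving out 1 library at a time moved combination minus anti-PDL1 between 0.37 and 0.98. The level of Ccl12 went with the summed macrophage markers over the 16 libraries (Pearson r 0.668, Spearman rho 0.597, r 0.446 without controls 1 and 2), the only member whose r with that sum was above 0.6. With the summed fibroblast markers its r was 0.535 and its rho 0.635 (r 0.511 without controls 1 and 2), and neither relation was tested. In bulk samples fewer cells of a type and less RNA per cell cannot be told apart.

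Ccl8, an agonist of Ccr8 in mice, showed the widest spread of all members. It measured 23.2, 19.4, 21.4 and 20.9 FPKM in combination libraries, 17.1, 11.8, 12.3 and 14.2 FPKM in anti-PDL1 libraries and 4.54, 15.0, 10.9 and 8.18 FPKM in exercise libraries. Controls measured 57.4, 266, 5.86 and 9.94 FPKM. The controls thus held both the highest 2 values and 1 of the lowest, a 45.5-fold range, against a 1.19-fold range in combination tumours. All combination libraries lay above all anti-PDL1 and all exercise libraries. Combination minus exercise was 1.16 ± 0.81 on the log2 scale (adjusted p = 0.547 in limma) and combination minus anti-PDL1 was 0.59 ± 0.81 (adjusted p = 0.968). The standard error comes from a spread shared by all groups, which the controls widen. Without controls 1 and 2, which neither difference uses, both had a standard error of 0.26. The adjusted p in limma was then 0.190 for combination minus exercise and 0.956 for combination minus anti-PDL1. Against all 4 controls, Ccl8 stood at -1.16 ± 0.81 in anti-PDL1 (adjusted p = 0.398), -1.73 ± 0.81 in exercise (adjusted p = 0.280) and -0.57 ± 0.81 in combination tumours (adjusted p = 0.864). After leaving out controls 1 and 2 these 3 differences turned to 0.76, 0.19 and 1.36, so no direction against control is given for Ccl8.

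**Figure D2:**
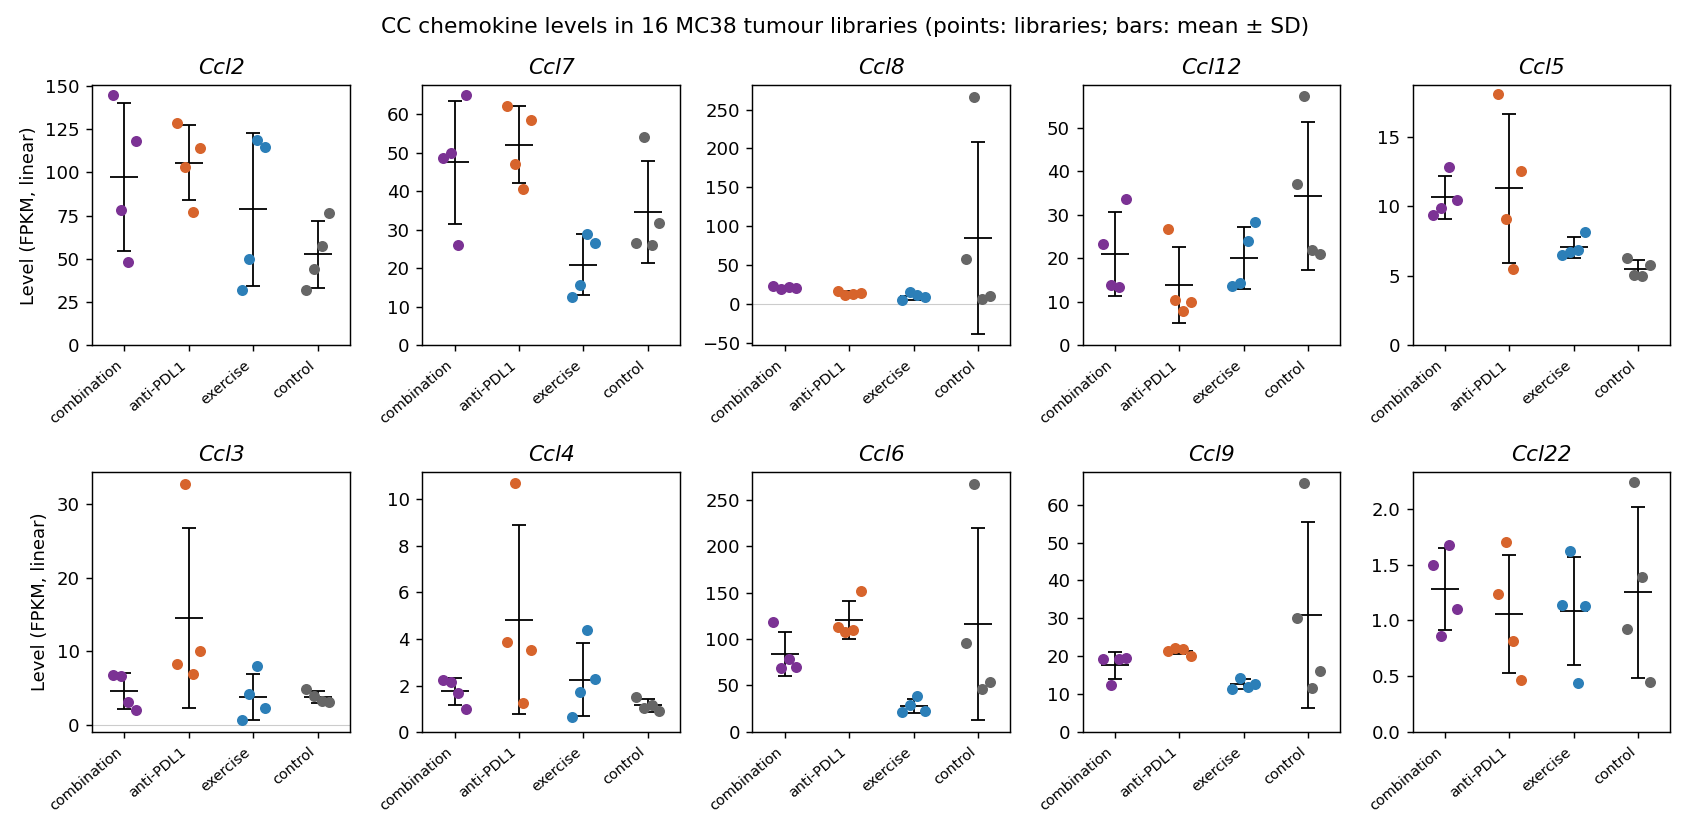
Level of each CC chemokine (y axes, FPKM, linear and different for each gene) in the combination, anti-PDL1, exercise and control groups (x axis), with 1 point per library and the mean ± SD (n = 4). Control 2 stands far above the other libraries for Ccl6, Ccl8 and Ccl9, at 267, 266 and 65.7 FPKM.

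Ccl5, which attracts T cells, measured 9.40, 9.88, 12.8 and 10.4 FPKM in combination libraries and 18.1, 9.07, 5.48 and 12.5 FPKM in anti-PDL1 libraries. It measured 6.47, 6.71, 6.86 and 8.13 FPKM in exercise libraries and 6.29, 5.04, 4.98 and 5.79 FPKM in controls. All combination libraries lay above all exercise and all control libraries, and all exercise libraries above all controls. Anti-PDL1 library 3 was the exception among antibody libraries and lay within the control range. Anti-PDL1 minus control was 0.81 ± 0.23 on the log2 scale (adjusted p = 0.0819 in limma) and combination minus exercise was 0.53 ± 0.23 (adjusted p = 0.326). Without anti-PDL1 library 3 the first of these was 1.08 and passed the threshold (adjusted p = 0.0173 in limma). That library was the lowest of its group. Without control 2 the difference was 0.77 (adjusted p = 0.251 in limma), and without controls 1 and 2 it was 0.84 (adjusted p = 0.608). Leaving out 1 library at a time moved it between 0.56 and 1.08. Combination minus control was 0.83 ± 0.23 (adjusted p = 0.572) and exercise minus control 0.30 ± 0.23 (adjusted p = 0.482).

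Ccl3, a ligand of Ccr1, measured 6.79, 6.64, 3.12 and 2.02 FPKM in combination libraries and 8.29, 32.7, 6.95 and 9.99 FPKM in anti-PDL1 libraries. It measured 0.66, 4.18, 8.03 and 2.35 FPKM in exercise libraries and 4.83, 3.94, 3.32 and 3.10 FPKM in controls. Every anti-PDL1 library lay above every combination and every control library. The log2 difference was 1.44 ± 0.51 for anti-PDL1 minus control (adjusted p = 0.128 in limma), -1.30 ± 0.51 for combination minus anti-PDL1 (adjusted p = 0.968) and 0.38 ± 0.51 for combination minus exercise (adjusted p = 0.786).

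Ccl4, the neighbour of Ccl3, measured 2.24, 2.15, 1.69 and 0.98 FPKM in combination libraries and 3.89, 10.7, 1.26 and 3.51 FPKM in anti-PDL1 libraries. It measured 0.64, 1.74, 4.39 and 2.28 FPKM in exercise libraries and 1.52, 1.04, 1.15 and 0.90 FPKM in controls. Anti-PDL1 library 2 was the highest of all libraries for both Ccl3 and Ccl4, and exercise library 1 the lowest. Anti-PDL1 minus control was 1.20 ± 0.41 on the log2 scale (adjusted p = 0.116 in limma), and combination minus exercise was -0.14 ± 0.41 (adjusted p = 0.915). For combination minus anti-PDL1 it was -0.86 ± 0.41 (adjusted p = 0.968). Leaving out 1 library at a time moved anti-PDL1 minus control between 0.78 and 1.57 and combination minus anti-PDL1 between -1.23 and -0.44.

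Of the Ccr1 ligands, Ccl6 measured 119, 69.3, 78.2 and 69.8 FPKM in combination libraries and 113, 107, 110.2 and 152 FPKM in anti-PDL1 libraries. It measured 21.5, 28.7, 38.9 and 22.8 FPKM in exercise libraries and 95.8, 267, 45.9 and 54.2 FPKM in controls. The highest exercise library lay below the lowest library of each other group. Combination minus exercise was 1.55 ± 0.41 on the log2 scale (adjusted p = 0.199 in limma), exercise minus control was -1.68 ± 0.41 (adjusted p = 0.181) and anti-PDL1 minus control was 0.41 ± 0.41 (adjusted p = 0.573). The comparison with exercise rests on no control library except through the shared spread, and without control 2 its standard error was 0.24 and its adjusted p 0.0297 in limma. With both controls left out exercise minus control was -0.85 (adjusted p = 0.506 in limma) and anti-PDL1 minus control 1.24 (adjusted p = 0.178), so both values moved by more than 1.5 times. Combination minus control was -0.13 with all controls and 0.71 without these 2.

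Ccl9 measured 19.4, 12.4, 19.4 and 19.5 FPKM in combination libraries and 21.5, 22.2, 22.0 and 20.2 FPKM in anti-PDL1 libraries. It measured 11.4, 14.4, 11.9 and 12.8 FPKM in exercise libraries and 30.2, 65.7, 11.6 and 16.02 FPKM in controls. All combination libraries lay below all anti-PDL1 libraries, and combination library 2 was the only 1 of its group within the range of exercise. The log2 difference was -0.29 ± 0.36 for combination minus anti-PDL1 (adjusted p = 0.968 in limma), 0.44 ± 0.36 for combination minus exercise (adjusted p = 0.621) and -0.93 ± 0.36 for exercise minus control (adjusted p = 0.217). Anti-PDL1 minus control was -0.20 ± 0.36 (adjusted p = 0.769) and turned to 0.62 without controls 1 and 2, where exercise minus control was -0.11. Combination minus control was -0.49 over all libraries and 0.32 without both.

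Ccl22, which attracts Ccr4-bearing T cells, was near the filter of 1 FPKM throughout. It measured 1.5, 0.86, 1.67 and 1.10 FPKM in combination libraries, 1.24, 1.70, 0.82 and 0.47 FPKM in anti-PDL1 libraries, 1.14, 1.62, 0.44 and 1.13 FPKM in exercise libraries and 0.92, 2.24, 1.39 and 0.45 FPKM in controls. All 4 groups overlapped. Its log2 difference was 0.15 ± 0.25 for combination minus exercise and -0.10 ± 0.25 for anti-PDL1 minus control (adjusted p = 0.832 and 0.835 in limma). The second of these was 0.11 without controls 1 and 2.

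Counted over the comparisons, the members passed the threshold only where the antibody was tested over both activity levels. In anti-PDL1 against control 0 of 10 members passed an adjusted p of 0.05 in limma, against 0.253% of the 11868 genes. At an unadjusted p of 0.05, Ccl2, Ccl3, Ccl4 and Ccl5 were higher, where 7.77% of genes were, and Ccl12 was lower, where 15.7% of genes were. Ccl2 and Ccl3 were higher with no overlap of the libraries, against 3.57% of genes. The median log2 difference of the members was 0.52 (all genes tested -0.04), and 0.79 without controls 1 and 2 (all genes tested -0.05).

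In exercise against control 0 of 10 members and 0.0% of genes had an adjusted p of 0.05 or less in limma. At an unadjusted p of 0.05, 0 members were higher (8.03% of genes) and Ccl6, Ccl7 and Ccl9 were lower (9.93% of genes). Ccl5 was higher with no overlap (4.21% of genes) and Ccl6 was lower with none (3.51% of genes). The members' median was -0.47 (all genes tested -0.02), and -0.01 without controls 1 and 2 (all genes tested 0.00), so no direction is given for the members as a group.

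For the combination against control 0 of 10 members and 0.0% of genes reached an adjusted p of 0.05 in limma. Ccl5 was higher at an unadjusted p of 0.05 (3.01% of genes) and with no overlap of the libraries (1.46% of genes). The members' median was 0.10 (all genes tested -0.03), and 0.43 without controls 1 and 2 (all genes tested -0.03). For the combination against anti-PDL1, again 0 of 10 members and 0.0% of genes passed the adjusted p in limma. At an unadjusted p of 0.05 Ccl3 was lower (1.69% of genes). Ccl8 was higher with no overlap (1.4% of genes), and Ccl3 and Ccl9 were lower with none (0.843% of genes). The members' median was -0.20 (all genes tested 0.02). For the combination against exercise 0 of 10 members and 0.0% of genes passed the adjusted p in limma, while Ccl5, Ccl6 and Ccl7 were higher at an unadjusted p of 0.05 (6.7% of genes). Ccl5, Ccl6 and Ccl8 were higher with no overlap (3.21% of genes), and the members' median was 0.41 (all genes tested -0.02). These comparisons share libraries with each other. A test of any difference among the 4 groups passed for 0 of 10 members and 0.135% of genes at an adjusted p of 0.05 in limma, and for 4 members and 20.8% of genes at an unadjusted p of 0.05. The smallest adjusted p of a member in that test was 0.104 for Ccl6.

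**Figure D3:**
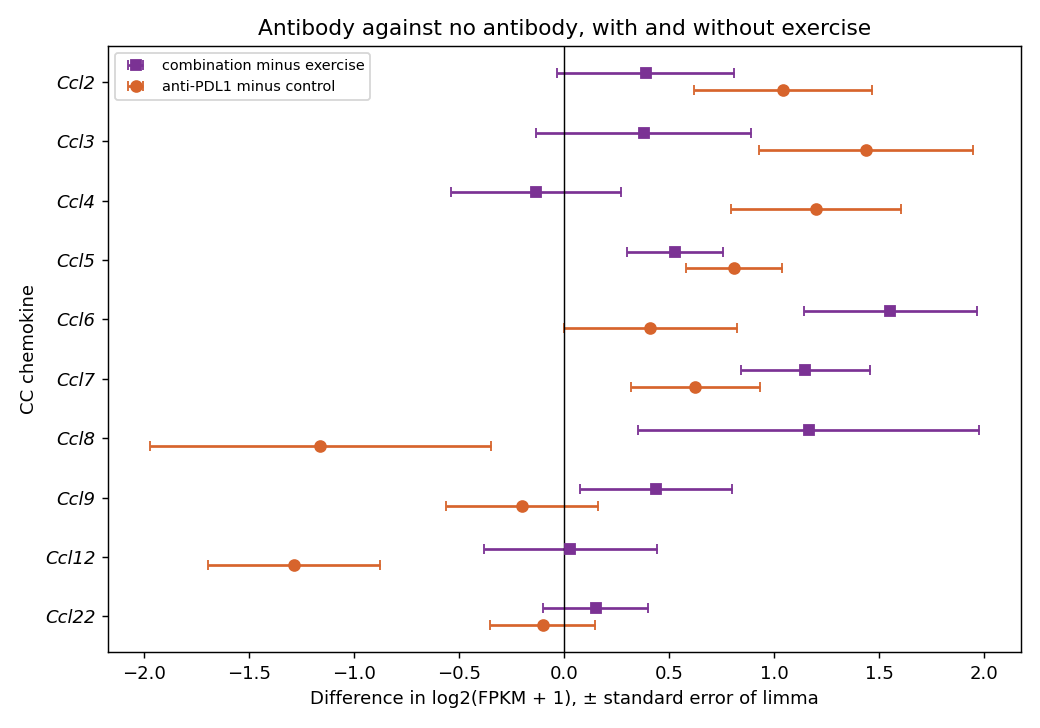
Log2 differences in FPKM + 1 (x axis) of combination minus exercise and of anti-PDL1 minus control for each CC chemokine (y axis), with bars of 1 standard error from limma. Ccl2, Ccl3, Ccl5, Ccl6 and Ccl7 lie above 0 in both comparisons, while Ccl8 and Ccl12 lie at -1.16 and -1.29 for anti-PDL1 minus control.

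Anti-PDL1 minus control and combination minus exercise share no library. In both of them 5 of the 10 members lay above 0, which were Ccl2, Ccl3, Ccl5, Ccl6 and Ccl7, while 21.8% of all genes tested did so. No member lay below 0 in both, where 33.4% of genes did, and the other 5 had opposite signs, as had 44.9% of genes. These counts use the sign alone, and the members were chosen with earlier results of these data known. Once controls 1 and 2 were left out Ccl8, Ccl9 and Ccl22 also lay above 0 in both, which made 8 of 10 members, where 20.2% of genes did so. Again 0 members lay below 0 in both, where 33.9% of genes did.

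Averaged over both activity levels, Ccl5 and Ccl7 rose with the antibody. The log2 difference was 0.67 ± 0.16 for Ccl5 (adjusted p = 0.0462 in limma with Benjamini-Hochberg adjustment over 11868 genes) and 0.89 ± 0.22 for Ccl7 (adjusted p = 0.0484). Thus 2 of 10 members passed, where 2.41% of all genes passed and 1.24% passed as higher. Both calls lie close to the threshold. Leaving out 1 library at a time, Ccl5 passed in 3 of 16 fits, which were those without control 4, anti-PDL1 1 or anti-PDL1 3, with log2 differences from 0.54 to 0.80 over all alternatives. Ccl7 passed in 4 of 16, without control 2, exercise 3, combination 3 or anti-PDL1 3, with differences from 0.78 to 1.01. Leaving out any other single library ended the call. Both calls also ended with the replicate number as a block (adjusted p = 0.0677 for Ccl5 and 0.0696 for Ccl7) and with no filter on low values (adjusted p = 0.0737 for each). Over all 25 alternatives Ccl5 passed in 9 and Ccl7 in 10. The adjusted p without controls 1 and 2 was 0.158 for Ccl5 and 0.0997 for Ccl7 in limma.

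Ccl6 had the largest difference among the members in that comparison, 0.98 ± 0.29, and did not pass (adjusted p = 0.0839 in limma). Without control 2 it was 1.24 with an adjusted p of 0.00731, and without controls 1 and 2 it was 1.40 with an adjusted p of 0.00103. The difference was 0.71 ± 0.30 for Ccl2, 0.91 ± 0.36 for Ccl3, 0.53 ± 0.29 for Ccl4, 0.12 ± 0.26 for Ccl9 and -0.63 ± 0.29 for Ccl12, with adjusted p between 0.163 and 0.817 in limma. For Ccl8 it was 0.00 ± 0.57. With both controls left out these values were 0.96 for Ccl8, 0.53 for Ccl9 and -0.36 for Ccl12. At an unadjusted p of 0.05 in limma 5 members were higher (8.15% of genes) and 1 was lower (14% of genes). The members' median was 0.60 (all genes tested -0.03).

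Whether the antibody difference itself depended on exercise was tested as an interaction, which is combination minus exercise less anti-PDL1 minus control. It passed for 0 of 10 members and 0.0% of genes at an adjusted p of 0.05 in limma. At an unadjusted p of 0.05, Ccl12 was higher (7.99% of genes) and Ccl4 was lower (5.11% of genes). The interaction was 1.32 ± 0.58 for Ccl12, -1.34 ± 0.57 for Ccl4, 1.14 ± 0.58 for Ccl6 and 2.33 ± 1.15 for Ccl8, with adjusted p between 0.373 and 0.402 in limma. Without controls 1 and 2 the values for Ccl12, Ccl6 and Ccl8 were 0.78, 0.31 and 0.40, and that for Ccl4 was -1.42.

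Ratios between 2 chemokines within a library are free of the library's scaling. Of 45 pairs, only Ccl7 over Ccl12 separated the 8 libraries with antibody from the 8 without. This pair was chosen after its values were seen and is given with no test. How often ratios of other genes separate groups was not computed, for this pair or for those below. The ratio of Ccl7 over Ccl12 was 2.10, 3.62, 1.96 and 1.93 in combination libraries and 2.31, 4.47, 5.14 and 5.86 in anti-PDL1 libraries. It was 0.922, 1.10, 1.20 and 0.940 in exercise libraries and 0.714, 0.943, 1.19 and 1.51 in controls. Both genes encode Ccr2 ligands of the same run on chromosome 11. Control 1 had the lowest ratio, and control 2 lay within the exercise range.

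Ccl2 over Ccl7 had a median of 1.83 in combination, 2.00 in anti-PDL1, 3.63 in exercise and 1.71 in control tumours, and the exercise libraries (2.52 to 4.31) lay above all anti-PDL1 (1.90 to 2.19) and all control libraries (0.818 to 2.42) and overlapped the combination (1.56 to 2.97). Ccl6 over Ccl9 had a median of 4.82 in combination, 5.13 in anti-PDL1, 1.94 in exercise and 3.66 in control tumours. The exercise range of 1.78 to 3.28 lay below that of the combination (3.59 to 6.12) and overlapped that of the controls (3.17 to 4.07). Ccl3 over Ccl4 had a median of 2.55 in combination, 2.96 in anti-PDL1, 1.43 in exercise and 3.31 in control tumours, and the exercise libraries (1.03 to 2.4) lay below all controls (2.89 to 3.79) and overlapped both antibody groups.

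**Figure D4:**
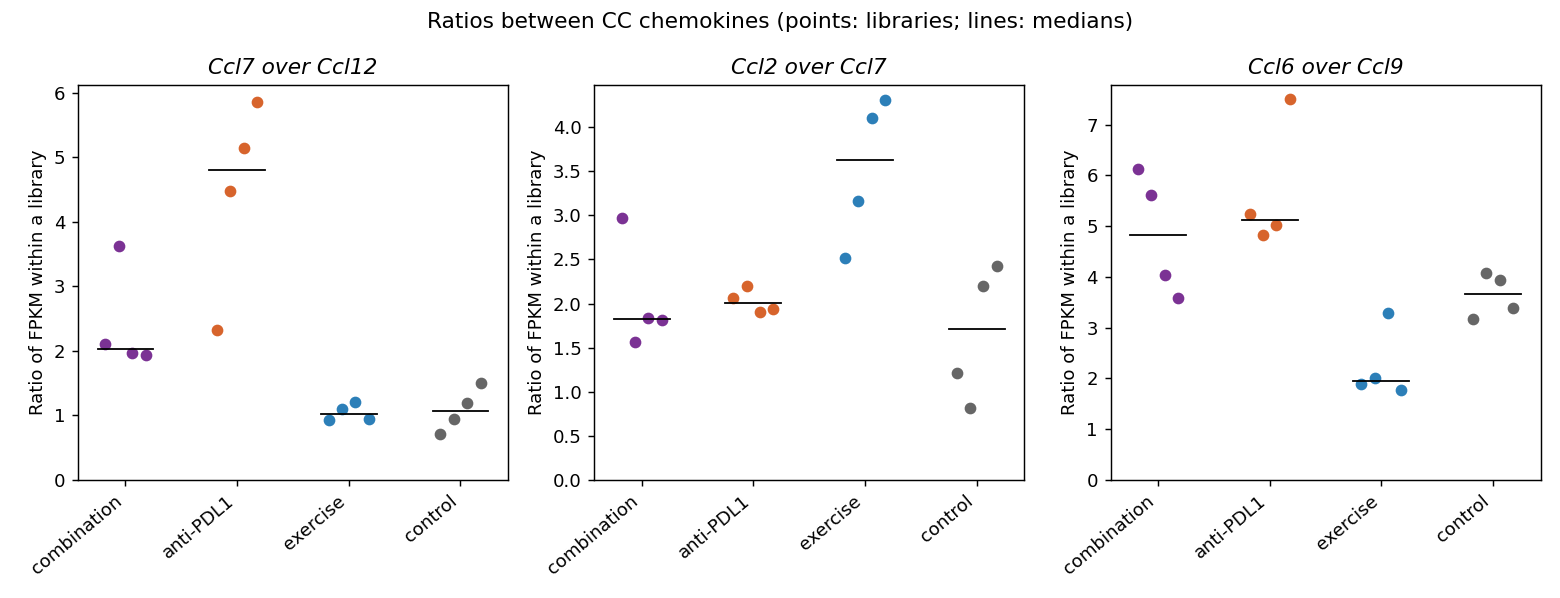
Ratios of FPKM within a library (y axes) for Ccl7 over Ccl12, Ccl2 over Ccl7 and Ccl6 over Ccl9 in the 4 groups (x axes), with 1 point per library and a line at the median. For Ccl7 over Ccl12 all libraries with antibody lie at 1.93 or above and all libraries without it at 1.51 or below.

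Over the 16 libraries, 30 of the 45 pairs of members correlated with r above 0 on the log2 scale, with r between -0.325 and 0.895 and a median of 0.214. After Benjamini-Hochberg adjustment over the 45 pairs, 5 pairs passed in Pearson's r, and 2 of these passed in Spearman's rho (permutation test, 100000 resamples, two-sided). Libraries were permuted without regard to group, so a group difference that 2 genes share can lower these p-values. Ccl6 with Ccl9 had r 0.825 (permutation p = 2e-05, adjusted p = 0.000675) and rho 0.824 (permutation p = 0.0002, adjusted p = 0.009), and r 0.747 without the 2 libraries farthest from the median of Ccl6. Ccl3 with Ccl4 had r 0.875 (permutation p = 3e-05, adjusted p = 0.000675) and rho 0.774 (permutation p = 0.00068, adjusted p = 0.0153), and r 0.707 without the 2 farthest. Within groups, as deviations from the group means, r was 0.870 for Ccl6 with Ccl9 and 0.892 for Ccl3 with Ccl4. Both pairs are neighbours on chromosome 11, and part of the reads of Ccl3 and Ccl4 may be shared, as stated above.

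Ccl8 with Ccl9 had the highest r, 0.895 (permutation p = 9e-05, adjusted p = 0.00135), with rho 0.644 (permutation p = 0.00841, adjusted p = 0.0757). Without controls 1 and 2, the 2 farthest libraries, r was 0.595, so much of the relation rests on them. Ccl6 with Ccl7 had r 0.773 (permutation p = 0.00042, adjusted p = 0.00472) and rho 0.697 (permutation p = 0.00343, adjusted p = 0.0514), and r 0.706 without the 2 farthest. Ccl6 with Ccl8 had r 0.711 (permutation p = 0.00105, adjusted p = 0.00945) and rho 0.659 (permutation p = 0.00667, adjusted p = 0.075), and r 0.456 without the 2 farthest. As deviations from the group means, r was 0.498 for Ccl6 with Ccl7, 0.910 for Ccl6 with Ccl8 and 0.944 for Ccl8 with Ccl9. These deviations include controls 1 and 2. Ccl7 and Ccl12, which lie in the same run on chromosome 11, had r 0.161 over all libraries (permutation p = 0.55, adjusted p = 0.757) and rho 0.179 (permutation p = 0.504, adjusted p = 0.782), and r -0.0217 without the 2 farthest. Their r within groups was 0.747.

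**Figure D5:**
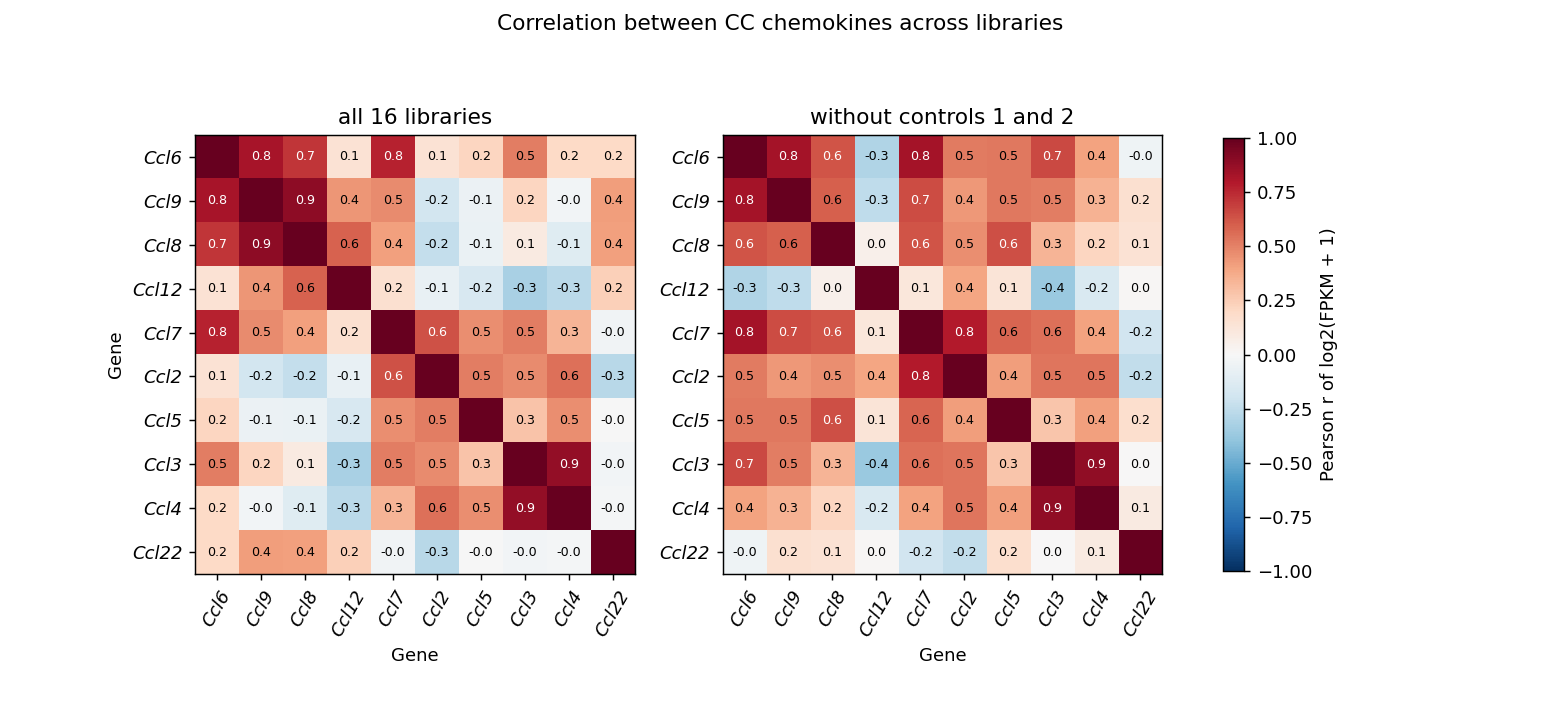
Pearson r of log2(FPKM + 1) between each pair of CC chemokines (both axes), over all 16 libraries on the left and without controls 1 and 2 on the right, from -1 in blue to 1 in red. Ccl8 with Ccl9 is at 0.895 on the left and 0.595 on the right, while Ccl3 with Ccl4 is at 0.875 and 0.886.

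The genes most like each member over the 16 libraries are given as a description, by Pearson r among the 11868 genes. Ccl2 was most like Xaf1 (r 0.918), Ifit3 (0.891) and Nupr1 (0.886). Xaf1 and Ifit3 are known as interferon-induced genes. For Ccl4 they were Cxcl1 (r 0.905), a neutrophil-attracting CXC chemokine, Ccl3 (0.875) and Tnfaip3 (0.835), a feedback inhibitor of NF-kB. Ccl5 was most like Tapbp (r 0.851), which loads peptides onto MHC class I, Cd3g (0.845), a T cell receptor chain, and Il7 (0.835). Ccl7 was most like Nod1 (r 0.842), Slfn1 (0.838) and Cd274 (0.827). Cd274 encodes PD-L1, the target of the antibody.

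For Ccl6 the most alike were Srgn (r 0.903), Rnf128 (0.897) and Bst1 (0.889), and for Ccl9 Wfdc17 (0.934), Gja4 (0.920) and Cd200r1 (0.915). Ccl8 was most like Ly9 (r 0.897), Ccl9 (0.895) and Wfdc17 (0.893), which were 0.489, 0.595 and 0.555 without controls 1 and 2. Ccl3 was most like Noct (r 0.888), Map2k1 (0.879) and Hcar2 (0.876), Ccl12 like Fam217b (0.868), Lst1 (0.853) and Sptlc2 (0.841), and Ccl22 like Arl4c (0.806), Ccdc85c (0.761) and N4bp3 (0.719).

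Of the 11 CC chemokine receptors measured, 4 reached the level for testing, and 0 of these passed in any comparison. Ccr2, the receptor of Ccl2, Ccl7 and Ccl12, averaged 6.18 ± 5.22 FPKM in combination, 1.76 ± 0.54 in anti-PDL1, 4.02 ± 2.00 in exercise and 8.05 ± 5.10 FPKM in control tumours (SD, n = 4 each), with an antibody difference of -0.67 ± 0.37 over both activity levels (adjusted p = 0.299 in limma). Ccr1, the receptor of Ccl6 and Ccl9, averaged between 5.88 FPKM in exercise and 8.80 FPKM in control tumours, and Ccrl2, an atypical receptor that presents chemerin, averaged 1.24 ± 0.42 FPKM in anti-PDL1 and 0.74 ± 0.15 FPKM in control tumours. The adjusted p of Ccr2, Ccr1 and Ccrl2 in the test over the 4 groups lay between 0.255 and 0.521 in limma.

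Of 5 genes listed as atypical receptors, most of which take up chemokines without classical signalling, only Ackr3 was tested. Whether it binds any of the members was not examined. Ackr3 averaged 76.0 ± 26.6 FPKM in combination, 119 ± 26.1 in anti-PDL1, 83.0 ± 32.2 in exercise and 64.7 ± 4.78 FPKM in control tumours, and its antibody difference of 0.37 ± 0.20 did not pass (adjusted p = 0.281 in limma). Of 10 other CC ligands measured, 6 were tested and 0 passed in any comparison. The smallest adjusted p over the 4 groups were 0.374 for Ccl25, 0.415 for Ccl11, 0.444 for Ccl24 and 0.516 for Ccl27a. The summed level of these ligands was 45.6 ± 18.9 FPKM in combination, 35.7 ± 4.49 in anti-PDL1, 34.9 ± 4.67 in exercise and 39.0 ± 1.74 FPKM in control tumours.

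Many of these chemokine genes are known to be induced through the transcription factor NF-kB, and 13 of its inducers and feedback targets were tested. In the antibody comparison over both activity levels 1 of 13 had an adjusted p of 0.05 or less, as higher, and 0 as lower, where 2.41% of all genes passed and 1.24% passed as higher. The list's median was 0.16 (all genes tested -0.03). The 1 gene was Il1a, an inflammatory cytokine, which measured 1.0, 0.82, 0.75 and 0.63 FPKM in combination libraries and 1.11, 5.23, 0.95 and 2.24 FPKM in anti-PDL1 libraries. It measured 0.09, 0.30, 0.73 and 0.21 FPKM in exercise libraries and 0.30, 0.17, 0.25 and 0.69 FPKM in controls. Il1a reached 1 FPKM in 4 libraries, all of them with antibody, and so entered the test only through those groups. Its difference of 0.81 ± 0.20 (adjusted p = 0.0464 in limma) and the count of 1 of 13 are therefore given as a description. Of the 16 fits that left out 1 library, 12 tested Il1a and it passed in 3, and its adjusted p was 0.192 without controls 1 and 2. Tnfaip3 had a difference of 0.36 ± 0.14 (adjusted p = 0.147). Nfkbia, which holds NF-kB in the cytoplasm, and Nfkb2, which encodes an NF-kB subunit, had adjusted p of 0.301 and 0.318 over the 4 groups in limma.

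Of the leukocyte lists, the T and NK cell list had 2 of 4 tested genes higher in the same comparison. The neutrophil list had 1 of 6 higher and the monocyte list 1 of 8 lower. The macrophage and dendritic cell lists had 0 of 12 and 0 of 4 in either direction. Over all genes 2.41% passed, and 1.24% passed as higher. Cd3g of the T and NK cell list reached 1 FPKM only in libraries with antibody and so entered the test only through those groups. The count of that list is therefore given as a description. The 2 genes of the T and NK cell list rose with the antibody over both activity levels, Nkg7, a cytotoxic granule protein, by 0.91 ± 0.17 and Gzmb, a cytotoxic granule protease, by 1.34 ± 0.29 (adjusted p = 0.0223 and 0.0344 in limma). Nkg7 was also the 1 gene of that list that passed in anti-PDL1 against control, as higher, where 0.253% of all genes passed. The sum of the 11 measured genes was 23.1 ± 8.53 FPKM in combination, 30.8 ± 14.4 in anti-PDL1, 12.5 ± 2.94 in exercise and 8.11 ± 2.34 FPKM in control tumours, and Cd3e and Cd8a had medians of 0.32 and 0.595 FPKM over all libraries. Over the 16 libraries the r of the 10 members with that sum lay between -0.356 for Ccl12 and 0.680 for Ccl2, with 0.578 for Ccl5 and 0.523 for Ccl7. Without controls 1 and 2 it lay between -0.00318 for Ccl22 and 0.750 for Ccl7. It was then 0.605 for Ccl2, 0.477 for Ccl5, 0.643 for Ccl6, 0.509 for Ccl8, 0.549 for Ccl9 and 0.000309 for Ccl12. Gzmb and Prf1 had the highest medians of the list, 5.205 and 4.21 FPKM, and weigh most in that sum. Ccl2 had r -0.759 with the summed dendritic cell markers (rho -0.776, r -0.727 without controls 1 and 2). Most of that sum was Fscn1, with a median of 223.7 FPKM, while Flt3 and Clec9a had medians of 0.155 and 0.025 FPKM. This r therefore describes Fscn1 and not dendritic cells as such.

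Of 12 macrophage genes 0 passed in any comparison, with a median of -0.76 for the antibody. Of 8 monocyte genes Cx3cr1 fell by 1.19 ± 0.30 (adjusted p = 0.0491 in limma), but the list's median was 0.06, with 4 of 8 genes above 0. Among 6 tested neutrophil genes Mmp8 rose by 1.03 ± 0.20 (adjusted p = 0.0230 in limma), but the list's median was -0.18, with 2 of 6 above 0. Neither gene thus stands for its list. Ly6g was at 0 in 10 libraries, Epx in 15 and Ms4a1 in 12. The part of these cells in the chemokine levels was not tested. Nkg7 and Mmp8 lost their calls without control 2 or exercise 2, Gzmb passed in 6 and Cx3cr1 in 2 of the 16 fits that left out 1 library, and none of these 4 passed without controls 1 and 2.

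Promoters of 6 members (Ccl3, Ccl6, Ccl8, Ccl9, Ccl12 and Ccl22) were in the RefSeq table of GRCm38.p6, as 250 bases before to 50 bases after the start. Those of Ccl6 and Ccl9 are printed because these neighbours varied together in both measures of correlation. Both are read 5′ to 3′ on the strand of the gene, the minus strand, at chr11:83593038-83593337 for Ccl6 and chr11:83578587-83578886 for Ccl9. Capitals mark the only match to a motif.
Ccl6: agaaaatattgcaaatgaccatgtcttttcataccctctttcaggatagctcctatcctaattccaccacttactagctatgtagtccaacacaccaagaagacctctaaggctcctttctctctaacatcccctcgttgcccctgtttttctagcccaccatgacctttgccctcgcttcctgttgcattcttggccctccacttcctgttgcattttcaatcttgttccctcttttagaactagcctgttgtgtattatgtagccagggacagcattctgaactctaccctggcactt
Ccl9: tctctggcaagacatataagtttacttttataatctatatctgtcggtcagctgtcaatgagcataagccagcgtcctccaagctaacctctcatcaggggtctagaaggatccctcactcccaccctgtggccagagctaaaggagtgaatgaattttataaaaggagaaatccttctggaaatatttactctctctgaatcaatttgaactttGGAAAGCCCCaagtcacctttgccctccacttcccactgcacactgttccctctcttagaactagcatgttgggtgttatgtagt

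These promoters shared an identical run of 13 bases, the longest among the 15 pairs of the 6 promoters, against 7 to 11 bases for the others. Both strands were searched for NF-kB (the letters GGGNN followed directly by TTTCC), for a STAT element called GAS (TTC and GAA with any 3 bases between), for an interferon element called ISRE (TTTC and TTTC with any 2 bases between) and for AP-1 (TGACTCA). The match in Ccl9 was NF-kB on the opposite strand, starting 35 bases before the start. NF-kB matched in 1 of 6 member promoters and in 1.63% of the 32851 promoters in the table. GAS, ISRE and AP-1 matched in 0 of 6 and in 8.3%, 3.44% and 5.2% of all promoters. A match describes letters in this window and is not evidence that a factor binds there.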

How the data were processed

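The authors deposited 1 table per library with a gene symbol and FPKM to 2 decimals, per the file headers. The submitters' processing notes name HISAT, Bowtie2 and the build GRCm38.p6, with no version or role. The labels' protocols say that RNA was extracted with Trizol and that total RNA was used. The library kit, its strandedness, the depth and the program that computed FPKM are not stated in these sources. Groups and replicate numbers were taken from the sample titles.

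Values were taken as log2(FPKM + 1), a scale that understates changes of low genes. The filter asked for 1 FPKM or more in 4 libraries or more, which left 11868 genes. A limma 3.58.1 model (R 4.3.3, with the trend and robust options of its empirical Bayes step) with group as its only term was fitted to all 16 libraries. P-values were adjusted by Benjamini-Hochberg over all genes tested within each of 8 comparisons, with a threshold of 0.05. The model was also tested on simulated data. Fold changes are log2 differences of the group named first minus the group named second, with standard errors. Correlations and figures were made in Python 3.11.15 with numpy 2.4.6, pandas 2.3.3 and matplotlib 3.10.9. Sequences and positions came from RefSeq (GRCm38.p6) and GENCODE M21 (GRCm38).

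The members and gene lists were chosen with earlier results of these data known. All members were named, with up to 4 genes of each pathway list by the smallest p over the 4 groups, every listed gene that passed in a comparison, and the 3 genes with the highest Pearson r for each member. Other named markers are defining markers of their lists. A gene of the pathway lists is not reported here. The alternatives were pseudocounts of 0.1 and 0.01, no filter, a mean of at least 5 FPKM, quantile normalization, centring on the library median, limma without trend and robust settings, only the groups compared, a replicate block, leaving out each library in turn, and leaving out controls 1 and 2.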

Additional observations from a re-analysis of the deposited data

Results flagged for a closer look

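In 4 of 40 groups (10 genes in 4 groups of 4 libraries) 1 library stood apart from the other 3, with a gap to its nearest neighbour that exceeded Dixon's critical value for the share of the whole range. Chance flags about 1 in 20 groups. Ccl3 was 32.73 FPKM in anti-PDL1 library 2, against 8.29, 6.95 and 9.99 FPKM in the others. Ccl6 was 151.52 FPKM in anti-PDL1 library 4, against 112.89, 107.14 and 110.18 FPKM. Ccl12 was 26.85 FPKM in anti-PDL1 library 1, against 10.53, 7.91 and 10 FPKM. Ccl9 was 12.37 FPKM in combination library 2, against 19.41, 19.37 and 19.45 FPKM. The first 3 are high and lie in 3 different anti-PDL1 libraries, and the last is low.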

How the results depend on the processing

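Of the 70 member fold changes (10 genes in 7 comparisons), 49 were recomputed under every alternative, and all 70 without controls 1 and 2, where 10 changed sign. Of 784 values without 1 library, 735 kept their direction and their side of the threshold, 25 lost a call, 3 gained one and 21 changed sign. Of 470 under the other alternatives, 452 kept both, 6 lost a call, 2 gained one and 10 changed sign. The causes were not tested.

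In the antibody comparison over both activity levels the number of members called, 2, was 0 with no filter on low values, 0 with the replicate number as a block, and 1 without controls 1 and 2, where it was Ccl6 and neither Ccl5 nor Ccl7. Over all genes, 106 passed there with no filter, 93 with the block and 28 of 11776 without controls 1 and 2. Leaving out 1 library gave 0 to 2 in that comparison and 0 to 1 in anti-PDL1 against control, in combination against exercise and in the test over the 4 groups. Without controls 1 and 2 Ccl6 was the only member that passed in combination against exercise and in the test over the 4 groups. Over all genes, 5 and 17 passed in these comparisons without both controls. Leaving out 1 library gave 0 to 184 genes in combination against exercise and 5 to 306 in the test over the 4 groups. The replicate numbers did not pair libraries across groups, since the deviations of same-numbered libraries correlated at -0.62 to 0.344 over 24 pairs (median -0.0732), and only 1 of 16 libraries correlated best with its own number.

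Without controls 1 and 2, the sign turned for anti-PDL1 minus control in Ccl8 (0.76), Ccl9 (0.62) and Ccl22 (0.11), for exercise minus control in Ccl8 (0.19) and Ccl22 (0.13), for combination minus control in Ccl6 (0.71), Ccl8 (1.36) and Ccl9 (0.32), for the interaction in Ccl9 (-0.18) and for the antibody over both activity levels in Ccl8 (0.96). That last value, near 0, was also 0.043 and 0.048 with pseudocounts of 0.1 and 0.01, 0.035 with quantile normalization and 0.029 with median centring. Leaving out 1 library moved Ccl8 from -1.32 to 0.44 for combination minus control and from -0.38 to 0.50 for the antibody over both activity levels. It moved Ccl9 from -0.55 to 0.25 for anti-PDL1 minus control and from -0.056 to 0.344 for the antibody, and Ccl22 from -0.294 to 0.093 for anti-PDL1 minus control. For combination minus exercise the ranges were -0.048 to 0.767 in Ccl3, -0.43 to 0.15 in Ccl4, -0.22 to 0.21 in Ccl12 and -0.017 to 0.271 in Ccl22.

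Over all genes, the number called in anti-PDL1 against control, 30, lay between 6 and 767 without 1 library, and that for the antibody over both activity levels, 286, between 40 and 517. Under the other alternatives these counts lay between 4 and 117 and between 28 and 291.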
